A study of Mus musculus with 12 samples.

Results

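The genes described here are Pmaip1 and 9 other members of the BCL2 family, taken by symbol from a deposited table of 34193 genes, and all 10 were present. They are Pmaip1, Bbc3, Bcl2l11, Bid and Bad, which encode BH3-only proteins, Bax and Bak1, which encode the effectors, and Bcl2, Bcl2l2 and Mcl1, which encode pro-survival proteins. Pmaip1 was chosen by its measured difference between the genotypes in this same table, and the others because they belong to its family. The differences between genotypes of these 10 genes are therefore given as a description, with their errors and without p-values.

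The libraries were made from ribosomal RNA-depleted total RNA of the cerebral cortex of mice aged 8 weeks. All animals carried Nsd1 flx/flx, that is, Nsd1 alleles with loxP sites. The 6 conditional knockout (cKO) libraries came from mice with Nestin-cre +/- and the 6 control libraries from mice with Nestin-cre -/-. Nestin-Cre drives recombination in the neural lineage, so cells of other origin, such as microglia and blood vessels, keep the intact gene, and controls with Cre alone are not among the groups. The enzyme NSD1 places dimethyl marks on lysine 36 of histone H3, which the title of the series links to neuronal DNA methylation outside CG sites.

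Proteins of the BCL2 family decide whether the outer membrane of the mitochondrion is opened during apoptosis. BAX and BAK form the pores, the pro-survival proteins hold them in check, and BH3-only proteins relay stress by binding the pro-survival proteins or by activating the effectors directly. PMAIP1, also called NOXA, binds chiefly MCL1, and its gene is a known target of p53 and of the integrated stress response. Mature neurons rely on BAX as their main effector and on a high threshold for apoptosis.

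Reads assigned to genes numbered 10.5 to 27.0 M per library, and 3 reads corresponded to 1.98 to 5.64 normalised reads. Libraries 1 to 3 of each genotype held over 100 normalised reads of 4 Y-linked genes and libraries 4 to 6 at most 3.09 (called below libraries with and without Y-linked reads), which goes against the labelled sex of the same-numbered samples in part, so libraries are known by genotype and by this set only. Control libraries 4 and 5 were richest in mitochondrial ribosomal RNA (14.2% and 11.5%, against 1.46% to 6.00% in the others). The cKO library 4 stood apart from the other 5 cKO libraries in 1730 of 14397 tested genes, or 12% of them, against 31 to 155 genes for any other library, counted by Dixon's criterion for a single distant value. Some library stood apart in this way in 14.5% of tested genes in the cKO and in 3.27% in the controls. Results that rest on cKO library 4 are given with and without it. Nsd1 itself, the targeted gene, ran from 3214 to 5269 normalised reads in the controls and from 2853 to 3617 in the cKO, so the ranges overlapped. The ratio of means was 0.768 and the log2 fold change -0.36 (SE 0.12, limma adjusted p = 0.383), which was not called. Values are per gene, so reads between the loxP sites were not seen apart, and the ratio does not measure how complete the deletion was. The cortical excitatory neuron markers Slc17a7 (22117 to 33908 normalised reads) and Tbr1 (2094 to 3190) were present in all 12 libraries. In bulk tissue, fewer cells of a type and less RNA per cell cannot be told apart.

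Pmaip1 was the only one of the 10 members whose genotypes did not overlap. Its normalised reads had a lowest value of 41.4, a median of 46.6 and a highest of 56.3 in the controls, and a lowest of 17.8, a median of 22.1 and a highest of 37.0 in the cKO. Every cKO library lay below every control library, and cKO library 6, at 37.0, was the highest of its group by a wide gap, since the other 5 lay between 17.8 and 23.1. The control mean was 47.2 ± 5.28 and the cKO mean 23.9 ± 6.71 normalised reads, a ratio of 0.506 (here and below, ± gives the SD over the 6 libraries of a genotype). The log2 fold change on the log2(value + 1) scale was -0.98 (SE 0.17, 95% interval -1.35 to -0.61), and only 9 of the 14397 tested genes had a lower one. In the authors' deposited table the log2 fold change of Pmaip1 is -0.99 (SE 0.21).

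These values rest on few reads, 15 to 58 per library, with 261 in all control libraries and 165 in the cKO libraries, which were sequenced more deeply on the whole. The variance of Pmaip1 between control libraries was 0.506 times that expected from counting alone. It was 1.84 times in the cKO and 0.205 times without cKO library 6. The control libraries rich in mitochondrial ribosomal RNA, 4 and 5, had 43.2 and 48.9, inside the range of the other controls, and without them the log2 fold change was -1.04. Without cKO library 4 it was -0.89, and without cKO library 6 it was -1.11.

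**Figure D1:**
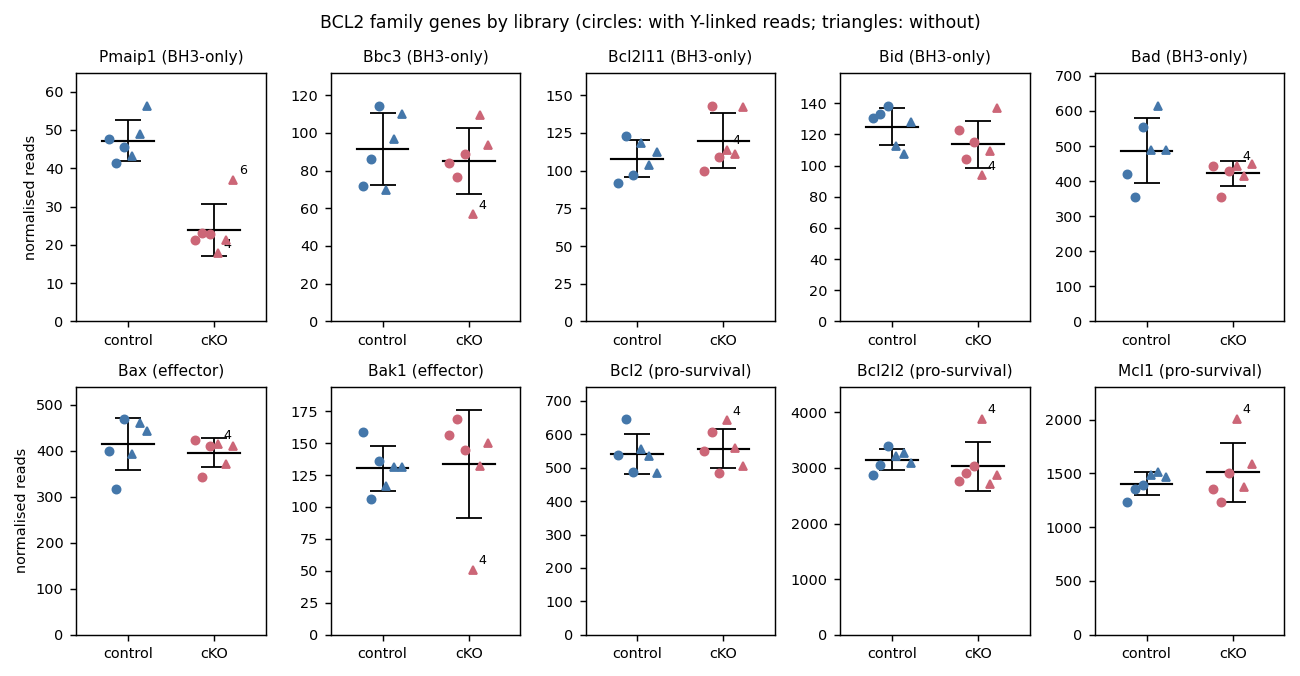
Normalised reads of the 10 genes in each library, on linear axes from 0, with control and cKO side by side. Circles mark libraries with Y-linked reads and triangles those without, horizontal bars the mean and whiskers the SD of 6 libraries; the digits 4 and 6 mark those cKO libraries. The groups separate for Pmaip1 (41.4 to 56.3 against 17.8 to 37.0), the gene chosen for this difference, and overlap in every other panel.

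Of the 10 members, 1 was called lower in the cKO, where 0.0695% of all tested genes were called lower at a limma adjusted p under 0.05, and 0.834% were called in either direction. The call of this member, Pmaip1, was lost by edgeR in 8 of 10 random draws that thinned the libraries to an equal number of reads, with log2 fold changes of -1.13 to -0.83 over the 10 draws. The same member is the only one called in the authors' deposited table, where the share is 0.906%. Groups that did not overlap with the cKO lower were found for 1 member and for 0.194% of all tested genes (1.01% in either direction). As Pmaip1 was chosen for this difference, nothing is read from these counts. The other 9 members had log2 fold changes between -0.19 and 0.14. Over all 10, 7 lay below 0 and the median was -0.06, beside a median of -0.00069 and a share of 50.1% below 0 for all tested genes.

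Each of the other BH3-only genes overlapped between the genotypes. Bbc3 encodes PUMA, like NOXA a p53 target, and ran from 69.5 to 114 normalised reads in the controls and from 56.9 to 109 in the cKO. Its log2 fold change was -0.11 (SE 0.17, 95% interval -0.47 to 0.25), and 5 of 6 cKO libraries lay inside the control range. Without cKO library 4, which held the lowest value, it was 0.01 (SE 0.15). Bcl2l11 encodes BIM, which is induced in neurons deprived of trophic support, and had a log2 fold change of 0.14 (SE 0.12, 95% interval -0.11 to 0.40), which was 0.08 without cKO library 2. It ran from 92.1 to 123 normalised reads in the controls and from 99.9 to 143 in the cKO. Bid, which links death receptors to mitochondria once cleaved by caspase 8, averaged 125 ± 12.1 normalised reads in controls and 114 ± 15.0 in cKO libraries, a log2 fold change of -0.14 (95% interval -0.37 to 0.09).

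Bad, a BH3-only protein controlled by growth factor signalling through phosphorylation, had the lowest log2 fold change after Pmaip1, -0.19 (SE 0.11, 95% interval -0.42 to 0.05). It ran from 356 to 615 normalised reads in the controls and from 354 to 448 in the cKO, so that the cKO libraries lay within or just under the lower part of the control range. Control library 5, with 11.5% mitochondrial ribosomal RNA, held the highest value. Without control libraries 4 and 5 the log2 fold change of Bad was -0.12. The part of that RNA share in the difference was not tested.

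The effectors overlapped between the genotypes as well. Bax averaged 413 ± 56.7 normalised reads in controls and 395 ± 31.5 in cKO libraries, and all 6 cKO libraries lay inside the control range. Its log2 fold change was -0.06 (SE 0.10, 95% interval -0.27 to 0.16), between -0.13 and -0.0050 with single libraries left out and 0.046 with a trend in transcript length removed. Bak1 had a lowest value of 107, a median of 131 and a highest of 159 normalised reads in the controls, and a lowest of 51.0, a median of 147 and a highest of 169 in the cKO. The lowest value came from cKO library 4, and the other 5 cKO libraries lay between 132 and 169. With all libraries the log2 fold change of Bak1 was -0.04 (SE 0.22), and without cKO library 4 it was 0.20 (SE 0.11), the opposite direction. In the authors' deposited table the value for Bak1 is 0.03.

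Promoter sequences (250 bases before to 50 after the start, RefSeq, GRCm38.p6) were matched for 9 of the 10 members, all but Pmaip1, in 13 windows. Bcl2l11, Bbc3 and Bad gave more than 1 window each, and some windows of Bbc3 shared bases, so the 13 are not independent. All 13 held more CG dinucleotides than the median promoter, with 9 in Bcl2l2 to 44 in Bcl2, beside a median of 7 over 32851 promoters of the same length. A half-site of the p53 response element, searched under that name on a pattern that reads the same on both strands, was found in 8.36% of all promoters and in 1 of the 13 windows, that of Bax. It is shown because Bax is a known target of p53 and its window alone of the 13 held the match. The windows of Bbc3, also a p53 target, held none. The window lies on the minus strand at chr7:45466849-45467148 of GRCm38.p6, and the capitals mark the half-site, from base -201 to base -192 relative to the start.
Bax promoter: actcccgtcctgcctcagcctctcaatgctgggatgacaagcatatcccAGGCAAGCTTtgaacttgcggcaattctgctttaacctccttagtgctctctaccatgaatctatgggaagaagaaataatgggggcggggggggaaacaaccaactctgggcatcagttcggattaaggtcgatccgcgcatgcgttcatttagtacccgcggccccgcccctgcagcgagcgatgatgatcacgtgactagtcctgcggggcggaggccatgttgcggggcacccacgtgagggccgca
The match is a description of these letters, and binding of p53 was not measured.

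Among the pro-survival genes, 5 of 6 cKO libraries of Bcl2, 2 of Bcl2l2 and 4 of Mcl1 lay inside the control range. Bcl2, the founding member of the family, averaged 541 ± 59.3 normalised reads in controls and 558 ± 59.6 in cKO libraries, a log2 fold change of 0.04 (95% interval -0.16 to 0.25), and -0.0031 without cKO library 4. Bcl2l2, which encodes BCL-W, had a lowest value of 2879, a median of 3153 and a highest of 3398 normalised reads in the controls, and a lowest of 2707, a median of 2890 and a highest of 3881 in the cKO. The highest cKO value was again that of library 4, and the other 5 reached no more than 3039. The log2 fold change of Bcl2l2 was -0.07 (SE 0.09) with this library and -0.14 (SE 0.07) without it. Mcl1, the main binding partner of NOXA, had a lowest value of 1231, a median of 1428 and a highest of 1517 normalised reads in the controls, and a lowest of 1234, a median of 1441 and a highest of 2007 in the cKO, the last in library 4. Its log2 fold change was 0.09 (SE 0.09, 95% interval -0.10 to 0.28), and 0.02 (SE 0.07) without cKO library 4.

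**Figure D2:**
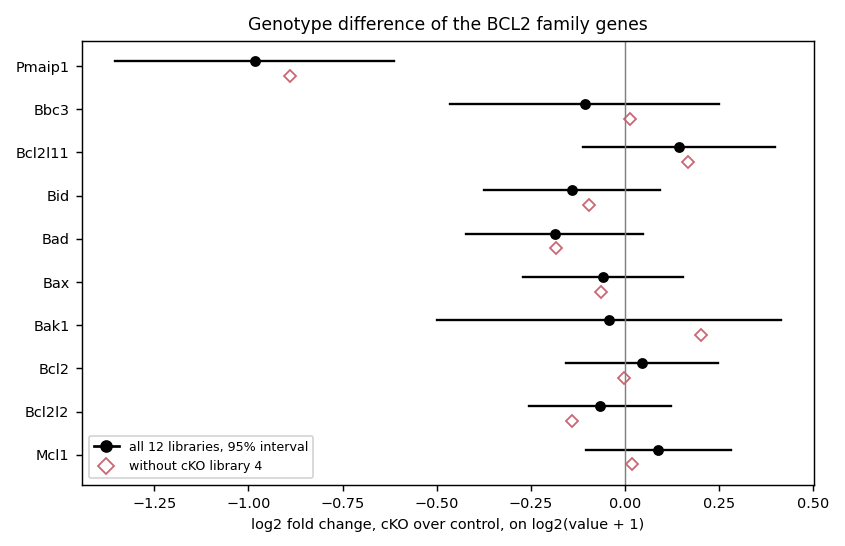
Log2 fold change of each gene, cKO over control, on the log2(value + 1) scale. Black points and lines are the estimate and 95% interval from all 12 libraries, and open diamonds the estimate without cKO library 4. The interval of Pmaip1, which was chosen for this difference, runs from -1.35 to -0.61. Those of the other 9 include 0, and Bak1 moves from -0.04 to 0.20 without cKO library 4.

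Markers of other cell types were summed beside these values. No tested gene of the marker lists given here was called between genotypes by limma. The excitatory neuron markers Slc17a7, Camk2a, Neurod6 and Tbr1 summed to 99530 to 116109 normalised reads in the controls (median 102716) and to 86763 to 106446 in the cKO (median 97804), and their part in the difference of Pmaip1 was not tested. Microglia markers summed to 3633 to 4284 normalised reads in the controls and to 3483 to 4412 in the cKO, and endothelial markers to 1662 to 1935 and to 1433 to 2013. Oligodendrocyte markers ran from 54046 to 91883 in the controls and from 53112 to 73983 in the cKO, with medians of 73720 and 56781, and their part in the difference of Pmaip1 was not tested. The B cell markers Cd79a, Cd79b and Ms4a1 summed to 5.28 to 11.3 and to 1.03 to 12.3 normalised reads, near the value of 3 reads. Astrocyte markers ran from 100553 to 163220 and from 107828 to 141185, inhibitory neuron markers from 5915 to 9419 and from 6910 to 9142, and those of progenitors and immature neurons from 526 to 787 and from 557 to 734. The genotypes also overlapped for oligodendrocyte precursors (1384 to 1655 and 1362 to 1612), mural cells (1144 to 1772 and 1153 to 1356) and red blood cells (201 to 347 and 148 to 299, with medians of 295 and 182). In cKO library 4 the sums of excitatory neuron (86763), oligodendrocyte (53112), microglia (3483), endothelial (1433) and mural (1153) markers were the lowest of the 6 cKO libraries.

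The contrast between libraries with and without Y-linked reads, and the difference in genotype effect between these sets, had no part in the choice of the genes. Libraries with Y-linked reads held 18.8 to 27.0 M reads and 1.46% to 4.29% mitochondrial ribosomal RNA. The others held 10.5 to 20.4 M reads and 3.16% to 14.2%. Differences between the sets therefore cannot be told apart from differences in depth and RNA composition. The genotype values within each set are those by which Pmaip1 was chosen and are given as a description. Within the set with Y-linked reads Pmaip1 stood at 41.4, 45.6 and 47.7 normalised reads in the controls and at 21.2, 22.9 and 23.1 in the cKO. Within the other set it stood at 43.2, 48.9 and 56.3 in the controls and at 17.8, 21.3 and 37.0 in the cKO. The log2 fold changes were -0.97 (SE 0.25) and -1.0 (SE 0.25). Their difference was 0.02 (95% interval -0.74 to 0.79, limma adjusted p = 0.986), an interval that leaves room for a sizeable difference in either direction. No member was called for a genotype effect that differed between the sets (limma adjusted p of at least 0.640, and 0 members at an unadjusted p under 0.05), and neither edgeR nor DESeq2 called any. Over all tested genes 0% were called and 8.77% had an unadjusted p under 0.05. Bak1 had the largest such difference of the 10, with log2 fold changes of 0.24 in the set with Y-linked reads and -0.33 in the other, which includes cKO library 4. The difference for Bak1 was 0.57 (SE 0.42, limma adjusted p = 0.640), and 0.08 without that library.

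No member was called between the sets themselves, where 0.0764% of all tested genes were called (limma), and edgeR and DESeq2 also called none of the 10. An unadjusted p under 0.05 was found for 11.7% of all tested genes. Mcl1 alone of the members had an unadjusted p under 0.05 (0.0286, limma adjusted p = 0.391), with a log2 difference of -0.22 (SE 0.09) for libraries with against without Y-linked reads. Its libraries with Y-linked reads ran from 1231 to 1506 normalised reads and the others from 1375 to 2007, so the sets overlapped, and without cKO library 4 the difference was -0.15. For Pmaip1 the log2 difference was -0.12 (SE 0.17, limma adjusted p = 0.801).

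Levels were compared between genes per kilobase of their longest protein-coding transcript. The division assumes that reads were counted over exons, which was not checked. In the controls Bcl2l2 came first with 826 ± 47.8 normalised reads per kilobase (SD, n = 6), then Mcl1 with 411 ± 30.9, Bax with 376 ± 51.5 and Bad with 318 ± 60.4. The ranges of Mcl1 and Bax overlapped, as did those of Bax and Bad. A second tier held Bcl2 with 75.2 ± 8.25, Bid with 57.1 ± 5.55, Bak1 with 54.5 ± 7.49 and Bbc3 with 50.4 ± 10.5, of which Bid, Bak1 and Bbc3 overlapped with their neighbours in the order. Bcl2l11 with 21.4 ± 2.43 and Pmaip1 with 17.3 ± 1.94 were the lowest, and their ranges overlapped in the controls. In the cKO Pmaip1, at 8.76 ± 2.46 normalised reads per kilobase, lay below Bcl2l11 (23.8 ± 3.62) in every library. With the median length of the transcripts in place of the longest, 4 of 10 genes kept their place, among them Bcl2l2 and Mcl1 at the top and Bcl2l11 and Pmaip1 at the bottom, and Bbc3 moved up to the fifth. The ranges of Bcl2l11 and Pmaip1 in the controls did not overlap on that scale.

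**Figure D3:**
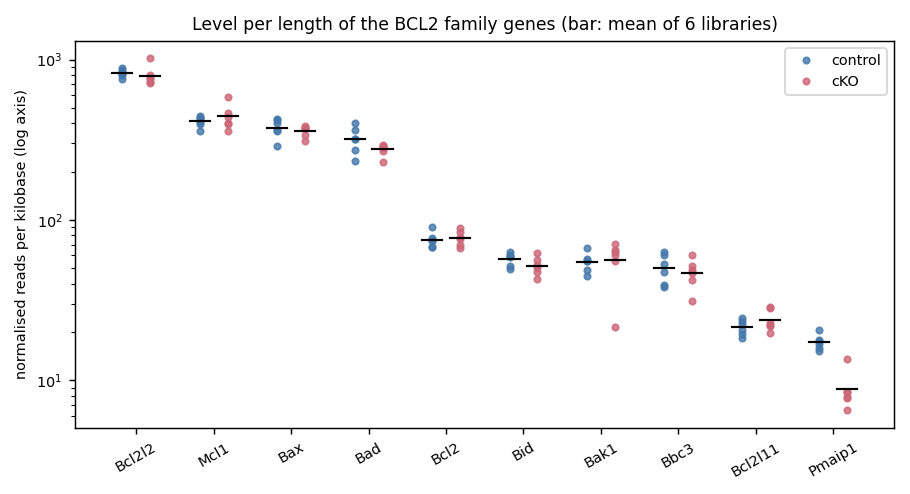
Normalised reads per kilobase of the longest protein-coding transcript on a log axis, one point per library, for controls and cKO, with genes in the order of their control means. Bars are means of 6 libraries. Means run from 826 for Bcl2l2 to 17.3 for Pmaip1 in the controls, and the cKO points of Pmaip1 lie under all those of Bcl2l11.

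Among 45 pairs of members, 3 had an adjusted permutation p under 0.05 over 12 libraries, with the means of genotype and set removed. The comparison was added after the data had been seen (two-sided permutation test of r, Benjamini-Hochberg adjusted over the pairs). The permutation treated the 12 values as independent, although removing the means ties them, so its p-values may be too small. Bax and Bad, with longest transcripts of 1100 and 1533 bases, gave Pearson's r = 0.92 (permutation p = 2e-05, adjusted 0.0009) and Spearman's rho = 0.93 (adjusted permutation p = 0.0018). Their r was 0.83 without the 2 libraries farthest from the median and 0.92 without cKO library 4. Bcl2l2 and Mcl1 gave r = 0.89 (permutation p = 0.00034, adjusted 0.00765) and rho = 0.78 (adjusted permutation p = 0.081), with r = 0.61 without the 2 farthest libraries and 0.75 without cKO library 4. Bak1 and Mcl1 gave r = -0.81 (permutation p = 0.00295, adjusted 0.0442) and rho = -0.67 (adjusted permutation p = 0.167), with r = -0.54 without cKO library 4, so this relation rests in part on that library. Pmaip1 was in none of the 3 pairs. Its highest r was 0.76 with Bid (adjusted permutation p = 0.0725), and 0.14 without the 2 farthest libraries. Values of a library share its depth, scaling and RNA quality, and the part of these in the correlations was not tested. The share of pairs of other genes that reach such values was not computed. Nothing about the family is therefore read from the count of 3 pairs.

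Over the 12 libraries the genes with a profile most like that of Pmaip1, among 12299 whose mean reached 50 normalised reads, were Crlf2 (Pearson's r = 0.95), Heyl (0.92), Cyb5r1 (0.91), Fzd9 (0.89) and Ighm (0.88). Each of these had a lower mean in the cKO than in the controls, so the likeness includes the genotype difference by which Pmaip1 was chosen. With the means of genotype and set removed, other genes came first: Lrrtm3 (r = 0.91), Rasip1, Asl, Ccdc22 and Gatad2a (r = 0.90 each). Their Spearman's rho ran from 0.55 to 0.88. The profile left for Pmaip1 in that comparison rests on few reads and includes the distant value of cKO library 6, and these likenesses are listed as a description.

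Other genes of the apoptotic pathway were followed in 6 lists of 92 genes, of which 80 passed the filter on low values. None was called between genotypes (limma), 3 had an unadjusted p under 0.05, and neither edgeR, DESeq2 nor the authors' deposited table called any. Over all tested genes 9.73% had such an unadjusted p. The median log2 fold change of the 80 genes was -0.01, with 45 below 0 and 35 above.

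The list of other BCL2 family genes also took in genes outside the family proper, such as Becn1 and Bnip2. It had 10 tested genes of 17, with a median of -0.10 on the log2 scale and 9 of 10 below 0. Bcl2l1, which encodes the pro-survival protein BCL-XL, averaged 2063 ± 200 normalised reads in controls and 2044 ± 93.6 in cKO libraries (log2 fold change -0.0086, limma adjusted p = 0.973). Becn1, the autophagy protein with a BH3 motif, had a log2 fold change of 0.01, and Bnip3l, a receptor for the removal of mitochondria, -0.13. The cKO mean of Becn1 was 1980 normalised reads with cKO library 4 and 1869 without it, against 1952 in the controls. The 18 tested genes of the apoptosome, the caspases and their inhibitors had a median of -0.07, with 12 below 0. The inhibitors Birc6 (log2 fold change 0.13), Xiap (-0.06) and Birc2 (0.02) had the highest mean values of this list, the rule by which 3 genes of each list are named. The cKO mean of Birc2 was 586 normalised reads with cKO library 4 and 556 without it, against 574 in the controls.

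The 24 tested genes of p53 and its targets, the group to which Pmaip1, Bbc3 and Bax also belong, gave a median of 0.01 on the log2 scale, with 13 above and 11 below 0. Plk3, a kinase of the stress response, had a log2 fold change of 0.36 (unadjusted p = 0.00774, limma adjusted p = 0.368), and Cdkn1a, the p21 inhibitor of the cell cycle, 0.41 (unadjusted p = 0.0192, limma adjusted p = 0.457). These 2 genes were named after their values were seen. Over the list the log2 fold changes ran from -0.50 to 0.52. Zmat3, an RNA-binding protein, averaged 3455 ± 502 normalised reads in controls and 3598 ± 354 in cKO libraries, while the kinase Plk2 had a log2 fold change of 0.19 and the cyclin Ccng1 of -0.10.

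The 14 tested genes of the integrated stress response and of other inducers of BH3-only genes gave a median of 0.00043 on the log2 scale, with 7 on either side of 0. Atf4, the transcription factor through which this response induces Pmaip1, averaged 1865 ± 174 normalised reads in controls and 1815 ± 198 in cKO libraries (log2 fold change -0.04, limma adjusted p = 0.867). Foxo3, which induces Bcl2l11 and Bbc3, had a log2 fold change of -0.02, and Asns, a target of ATF4, of 0.08. Of the 5 genes that control the turnover of MCL1 protein, the median was 0.05. Huwe1, a ubiquitin ligase for MCL1, had a log2 fold change of -0.02, Usp9x, a deubiquitinase for MCL1, of 0.17, and Fbxw7, another ligase subunit, of 0.05. The cKO mean of Fbxw7 was 4385 normalised reads with cKO library 4 and 4182 without it, against 4232 in the controls. The 9 partners at the mitochondrial outer membrane had a median of -0.14. Tomm20, an import receptor named after its value was seen, had a log2 fold change of -0.39 (unadjusted p = 0.00867, limma adjusted p = 0.374). Vdac1, the main anion channel of that membrane, had 0.16, Dnm1l, the fission enzyme, 0.21 and its receptor Mff -0.14.

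**Figure D4:**
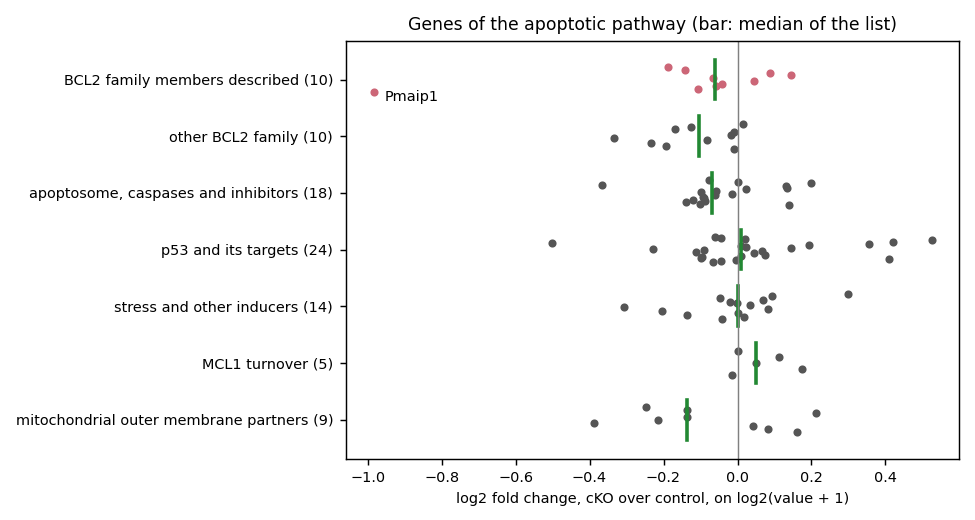
Log2 fold change, cKO over control, of each tested gene (points) in the family described here and in 6 lists of the apoptotic pathway, with the number of genes in brackets and the median of each list as a bar. The medians run from -0.14 to 0.05. Pmaip1, which was chosen for its difference in these same libraries, lies at -0.98, apart from every listed gene.

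Genes that neighbour or overlap the members were examined for shared reads. On the RefSeq map of GRCm38.p6 the genes of the table next to Pmaip1 are Mir694, which was listed at 0 in all 12 libraries, and Mc4r, the melanocortin 4 receptor. Mc4r averaged 36.2 ± 8.56 normalised reads in controls and 42.6 ± 13.9 in cKO libraries (log2 fold change 0.19, limma adjusted p = 0.746). GENCODE M21 lists no gene that overlaps Pmaip1. Bak1, Bid and Bad each overlap a gene on the opposite strand, Ggnbp1, Bcl2l13 and Gpr137, which had 333, 1192 and 1337 normalised reads in the controls. As the sources used here do not say whether strand was used in counting, the values of these 3 members may include reads of their partners. The log2 fold changes of Ggnbp1, Bcl2l13 and Gpr137 were 0.08, -0.02 and -0.23 (limma adjusted p = 0.734, 0.941 and 0.525). Their part in the differences of Bak1, Bid and Bad was not tested. On the same strand, Bax overlaps Gm45808 and Bcl2l2 overlaps Gm20521, a readthrough gene, neither of which was analysed here.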

How the data were processed

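The deposited table holds 12 RNA-seq libraries. Per the labels' protocols these are directional, ribosomal RNA-depleted libraries; mm9, STAR, Bowtie, Trim Galore and bedtools appear in the submitters' processing notes, with no version or role. The file headers call the values DESeq2 normalised counts. The authors thus deposited a signal, read counts rescaled between libraries; all were whole multiples of 1 step per library within 0.01 reads, which gave whole reads (100% of values). The authors also deposited a log2 fold change, a score (Wald statistic) and p-values.

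The test was limma 3.58.1 in R 4.3.3 (two-sided, eBayes with a trend in mean level) on log2(value + 1). Its terms were genotype and set by Y-linked reads (Uty, Kdm5d, Ddx3y and Eif2s3y together above 100). It covered 14397 genes whose mean reached 10, and calls needed a Benjamini-Hochberg adjusted p below 0.05. edgeR 4.0.16 and DESeq2 1.42.0 were run on the recovered reads as alternatives. DESeq2 with this model gave the deposited fold changes within 4.1e-09. The fits were tested on simulated data. Replicates are labelled biological but no animal is named, and p-values reflect only the spread among these libraries.

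Members and lists were chosen with earlier results of these data known. The text names all members, Nsd1, the 3 genes of highest mean in each list and any called, the genes next to Pmaip1 and the 5 most like it with and without genotype and set means. Transcript lengths came from GENCODE M21. Alternatives were pseudocount, filter, scaling, edgeR, DESeq2, no set term, a block by number, thinned reads, a length trend and leaving out libraries. The excitatory neuron and B cell sums use the markers named; 1 further marker of each is not reported here.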

Additional observations from a re-analysis of the deposited data

Results flagged for a closer look

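A single library lay far from the others of its group, by Dixon's criterion, in 7 of 60 groups examined (the members, Nsd1, Mc4r and the 18 list genes of highest mean, in each genotype), where chance gives about 5%. All 7 groups were cKO groups, and the same criterion met 14.5% of tested genes in the cKO and 3.27% in the controls. Pmaip1 in cKO library 6 stood at 37.0 normalised reads, above 17.8 to 23.1 in the other 5. In cKO library 4, Bak1 stood at 51.0, below 132 to 169 in the other 5, and Bcl2l2 at 3881, above 2707 to 3039. Becn1 at 2536, Birc2 at 735 and Fbxw7 at 5401 normalised reads were also highest in cKO library 4, above at most 1984, 578 and 4401. Bad in cKO library 2 stood at 354, below 415 to 448 in the others.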

How the results depend on the processing

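The log2 fold change of Pmaip1 kept its direction under all alternatives in which the gene passed the filter, and its call under all of these except random thinning of the libraries to an equal number of reads (mitochondrial ribosomal RNA left out). As Pmaip1 was chosen for its difference in these same libraries, this describes the processing and is no independent support for the difference. A filter at a mean of 50 removed Pmaip1, which left 0 members called. With single libraries left out its log2 fold change ran from -1.11 to -0.89. Depth limits this gene, which had 15 to 58 reads per library as deposited. Thinned to 9.02 M reads per library, with 6 to 37 reads of Pmaip1 per library, edgeR called it in 2 of 10 random draws, 9 of them added after the data had been seen. The 8 draws without a call gave -0.95, -1.0, -0.95, -0.91, -1.03, -1.02, -0.83 and -0.83, and the number of members called was 0 in the planned draw. The number of all genes called, 120 with 10 lower, was 58 with 5 lower at a filter of 50, 183 with 25 lower by DESeq2, 97 in the planned thinned draw, and had 6 lower without control libraries 4 and 5. It ran from 97 to 123 with single libraries left out. Whether the column number pairs the libraries is not settled. With genotype means removed, 4 of 6 same-numbered pairs correlated above 0.1, and 3 of 6 controls were closest to the cKO library of their own number. With set means removed as well, r was 0.46 and 0.48 for numbers 2 and 3 and -0.10 to 0.20 for the others. With this number as a replicate block, Pmaip1 gave -0.98 and 118 genes were called.

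The genotype difference, not called for these members, also turned for Bax (0.046) and Bcl2 (-0.040) with the length trend removed, and for Bak1 by edgeR (0.039), DESeq2 (0.031), quantile scaling (0.0030) and without control libraries 4 and 5 (0.032). With single libraries left out it ran from -0.14 to 0.20 for Bak1, -0.19 to 0.015 for Bbc3 and -0.0031 to 0.10 for Bcl2. In the 2 comparisons of the sets, no member was called under any alternative run, and some directions reversed. For the sets themselves these were Bbc3 with quantile scaling (0.016) and with the length trend removed (0.016), and Bcl2 with thinned reads (-0.035) and the length trend removed (-0.039). With single libraries left out the ranges were -0.21 to 0.011 for Pmaip1, -0.14 to 0.069 for Bbc3, -0.048 to 0.058 for Bcl2 and -0.11 to 0.0020 for Bcl2l2. For the difference in genotype effect they were, with quantile scaling, Pmaip1 (-0.19), Bbc3 (-0.13) and Bcl2l11 (-0.090), with edgeR Pmaip1 (-0.032) and Bbc3 (-0.040), with DESeq2 Pmaip1 (-0.033) and Bbc3 (-0.037), and with the length trend removed Bbc3 (-0.063) and Bax (-0.028). The ranges with single libraries left out were -0.19 to 0.32 for Pmaip1, -0.26 to 0.20 for Bbc3, -0.032 to 0.25 for Bax, -0.16 to 0.10 for Bcl2l2, -0.11 to 0.17 for Bcl2l11 and -0.22 to 0.052 for Mcl1. The causes were not tested.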
